A study of Homo sapiens with 3 samples.

Results

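Cholesterol synthesis and uptake were followed through 8 genes, HMGCS1, IDI1, FDFT1, SQLE, LSS, DHCR7, INSIG1 and SREBF2, out of 18349 genes with a probe on the arrays. They were chosen by gene name, with earlier results of these data known, and all 13 of their probes are given. All groups are YB5 cells, a single clone grown from the colon cancer line SW48. They were made to report the loss of DNA methylation, by a GFP gene whose CMV promoter is methylated and silent. Cells received decitabine at 25 nM, carboplatin at 20 uM or both, once a day from day 1 to day 4 (4 doses), with harvest on day 6, while control cells received DMSO. The study used 3 dual-colour Agilent arrays, 1 per treatment, with control RNA in Cy5 and treated RNA in Cy3 on each and no dye exchange. The carboplatin dose is that of the labels, since the study's text gives another in 1 place. No source used here says whether the control RNA came from a common extract.

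Cholesterol is built from acetyl-CoA through mevalonate, farnesyl diphosphate, squalene and lanosterol. When sterols in the endoplasmic reticulum run low, the escort protein SCAP carries SREBP precursors to the Golgi, where proteases release the part that enters the nucleus and switches on the genes of synthesis and uptake. INSIG proteins hold SCAP back when sterols are plentiful, and INSIG1 is itself a target of SREBP. SREBF2 encodes SREBP2, the form most tied to cholesterol genes, and SREBF1 the form most tied to fatty acid synthesis. Decitabine is a cytidine analogue that traps DNA methyltransferases, and carboplatin is a platinum compound that crosslinks DNA.

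The promoters of INSIG1 and DHCR7 are shown because these genes had the lowest values among the members, that of HMGCS1 because it acts early in the pathway, and that of SREBF2 because it holds the only SREBP site among the members searched. Each line gives the 150 bases before the annotated start, 5′ to 3′ on the gene's strand, from RefSeq on GRCh38.p14. They lie at chr7:155297728-155297877 (plus strand), chr11:71448394-71448543 (minus), chr5:43313413-43313562 (minus) and chr22:41832955-41833104 (plus). Capitals mark the SREBP site TCACNCCAC, the NF-Y box CCAAT and the SP1 box GGGCGG on either strand.
INSIG1: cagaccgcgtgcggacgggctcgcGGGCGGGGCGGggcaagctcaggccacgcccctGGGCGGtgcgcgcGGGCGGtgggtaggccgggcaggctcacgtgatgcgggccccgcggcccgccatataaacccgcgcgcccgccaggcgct
DHCR7: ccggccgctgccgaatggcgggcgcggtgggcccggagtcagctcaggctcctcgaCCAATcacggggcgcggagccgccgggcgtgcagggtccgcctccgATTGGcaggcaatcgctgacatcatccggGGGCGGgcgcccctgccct
HMGCS1: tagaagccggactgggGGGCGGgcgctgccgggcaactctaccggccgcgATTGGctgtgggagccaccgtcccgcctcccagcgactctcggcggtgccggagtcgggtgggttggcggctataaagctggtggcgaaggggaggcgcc
SREBF2: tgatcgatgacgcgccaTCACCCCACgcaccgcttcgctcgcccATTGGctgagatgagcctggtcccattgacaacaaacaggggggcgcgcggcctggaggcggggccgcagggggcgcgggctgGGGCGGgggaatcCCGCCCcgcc

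Promoter windows of 300 bases (250 before and 50 after the start) were held for 6 of the 8 members, and those of SQLE and FDFT1 are not shown. The SREBP site stood in 1 of the 6, SREBF2, where it begins at -133 from the start, against 1.13 % of all 35116 windows. The NF-Y box stood in 5 of the 6 (all but IDI1) against 34.6 % of all windows, and the SP1 box in 6 of 6 against 45.0 %. DHCR7 holds a pair of NF-Y boxes, at -94 and -48 from the start, and INSIG1 holds 1 at -170, outside the stretch printed. SP1 boxes of INSIG1 at -126 and -121 overlap by a base. These matches describe letters only, and a window without a match says nothing of a factor.

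Before the results, the labels of the single-drug arrays were set against the lists of genes that the study names as changed by carboplatin, which it chose on these arrays. The arrays are named below by their labels, as decitabine-labelled, carboplatin-labelled and, for both drugs, combination, and 3 values in a row follow that order. Of 147 such genes measured here, 94, 19 and 91 passed 1.5-fold in the direction listed, so the study's carboplatin lists follow the decitabine-labelled array more than the carboplatin-labelled one. Whether the labels or the lists name the drug cannot be told here. On the decitabine-labelled array, spots in columns 1 to 9 of 85 also stood apart, with a median log2 change of 0.76 against 0.00 in the other columns, so probes there were kept apart. Of the members, only IDI1 is affected. Of 12 colon epithelium markers, 11, 10 and 9 had a control signal well above background on the decitabine-labelled, carboplatin-labelled and combination arrays, CDX1 being below on all 3. Of markers of other cells, 2 or 3 of 5 for leukocytes, 1 of 5 for fibroblasts and 0 or 1 of 4 for endothelium were well above background, with PTPRC and LYZ of the leukocyte list below on all 3 and CD68 and CD3E above. CD68, a macrophage marker that other cells can express, changed by 1.00, 0.40 and 1.53 on the log2 scale, and its part in the results was not tested.

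All 13 member probes were well above background in both channels of all 3 arrays, and none was flagged or saturated. Repeated spots of 1 probe gave a pooled SD of the log2 change of 0.08 on the decitabine-labelled array, 0.07 on the carboplatin-labelled array and 0.08 on the combination array, over 263 probes. Each member probe has 1 spot per array, so the SD of these other probes is the error printed here. It covers spots of 1 hybridisation and not cultures or RNA samples, so no test was run, and a gene is called changed at 1.5-fold (0.58 on the log2 scale). Having 1 array per treatment limits the precision of every value.

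The members lay mostly below 0, and the falls were larger on the decitabine-labelled and combination arrays than on the carboplatin-labelled array. Among the 7 members with a probe outside columns 1 to 9, SQLE, LSS, DHCR7 and INSIG1 fell on the decitabine-labelled array, DHCR7 alone on the carboplatin-labelled array, and HMGCS1, SQLE, DHCR7 and INSIG1 on the combination array. None of the 7 rose on any array. Fewer cells that express a gene and less RNA per cell cannot be told apart in these bulk samples. Of all genes measured, 6.46 %, 1.86 % and 7.66 % fell on these arrays in the same order, and 6.77 %, 3.59 % and 9.83 % rose. The members fell in 4 of 7, 1 of 7 and 4 of 7, against those shares. They were chosen with earlier results of these data known, so this contrast is a description and no independent evidence. The members' median log2 change was -0.62, -0.27 and -0.69, on each array the value of SQLE, while that of all genes was -0.01, -0.01 and 0.01. Centring each array on its median in place of loess moves the median of all genes to -0.32, -0.32 and -0.31. With that centring 6, 5 and 6 of 7 members fell, against 26.9 %, 24.1 % and 28.2 % of all genes. Relative to the shift of all genes the members' medians are -0.74, -0.41 and -0.79, with 5, 2 and 5 of 7 beyond 1.5-fold. No share of all genes after that subtraction is given here. On the decitabine-labelled array bright DHCR7 moved from -1.07 to -1.62, and dimmer HMGCS1 from -0.54 to -0.91. Subtracting a single median thus does not take off the whole shift of bright genes. When each gene is read by its dimmest probe, the medians are -0.27, -0.18 and -0.17, with 3, 1 and 3 of 7 past 1.5-fold down. Read in that way, 4.37 %, 1.18 % and 5.4 % of all genes fell.

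**Figure D1:**
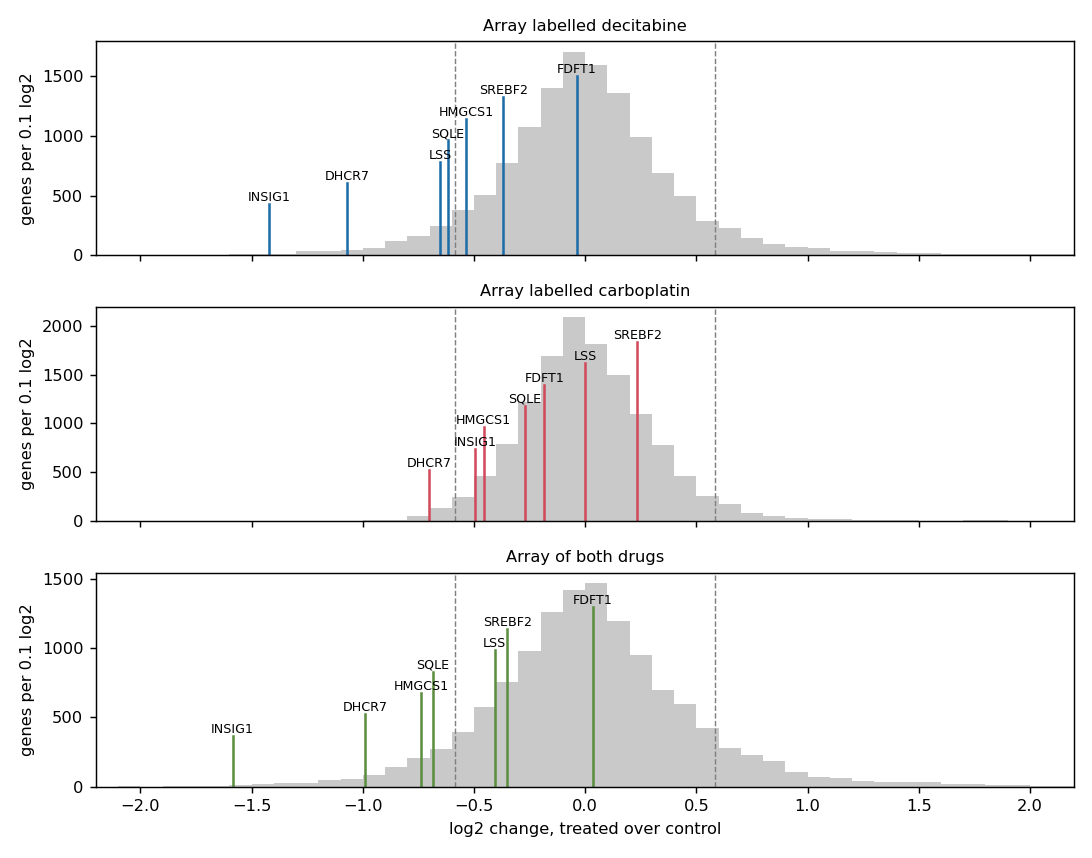
Number of genes (y axis, per 0.1 log2 units) by log2 change, treated over control (x axis), for all genes with a probe well above background in either channel of an array, with the 7 members outside columns 1 to 9 as labelled vertical lines whose height has no meaning. Dashed lines mark 1.5-fold, and INSIG1 and DHCR7 lie farthest to the left on the decitabine-labelled and combination arrays, at -1.42 and -1.07, and at -1.59 and -0.99.

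INSIG1, the membrane protein of the endoplasmic reticulum that retains SCAP, had the largest falls of the 7 members on the decitabine-labelled and combination arrays. Its channel level, a log2 intensity scaled across arrays, was 11.61 in control and 10.19 in treated cells on the decitabine-labelled array. The levels were 11.41 and 10.91 on the carboplatin-labelled array, and 11.54 and 9.95 on the combination array. All 3 control levels thus lie above all 3 treated levels, with the treated level of the carboplatin-labelled array nearest to the controls. The share of all genes with such a separation is not given, here or for the members below. A dye preference of a probe is kept in it. Its log2 changes were -1.42 ± 0.08, -0.50 ± 0.07 and -1.59 ± 0.08 (pooled SD of repeated spots of other probes). That is 2.68-fold and 3.00-fold lower on the decitabine-labelled and combination arrays, with 1.41-fold, short of the call, on the carboplatin-labelled array. Of all genes, 0.374 % had a lower value on the decitabine-labelled array, and 0.256 % on the combination array. INSIG1 has 1 probe here, A_23_P22027, which the files place on chr7:155100071-155100130 with no genome build named.

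SREBF2 encodes the precursor of SREBP2, and it passed 1.5-fold on no array. Its level was 12.30 in control and 11.93 in treated cells on the decitabine-labelled array, 12.22 and 12.45 on the carboplatin-labelled array, and 12.25 and 11.90 on the combination array. On the log2 scale the changes were -0.37, 0.23 and -0.35, so the value on the carboplatin-labelled array lies on the other side of 0 from the others by more than the SD of repeated spots. With median centring it turns to -0.26, where the median of all genes is -0.32. The dimmer probe A_23_P166502 gave -0.17, 0.21 and -0.03. The sign on the decitabine-labelled and carboplatin-labelled arrays is shared by both probes, and the value on the combination array lies within the SD of repeated spots by the dimmer one.

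DHCR7, the reductase that makes cholesterol from 7-dehydrocholesterol in the last step, was the only one of the 7 members to fall on all 3 arrays. Its level was 15.20 in control and 14.12 in treated cells on the decitabine-labelled array, 14.88 and 14.18 on the carboplatin-labelled array, and 15.03 and 14.04 on the combination array. All treated levels lie below all control levels, and the treated levels span less than the control levels do. The log2 changes were -1.07 ± 0.08, -0.70 ± 0.07 and -0.99 ± 0.08, equal to 2.10-fold, 1.62-fold and 1.98-fold lower. On the carboplatin-labelled array 0.628 % of all genes had a lower value. The control levels of DHCR7 differed by 0.32 between arrays, the widest range among the 7 members, whose other ranges run from 0.06 to 0.21.

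SQLE, the squalene monooxygenase that commits squalene to sterols, fell on the decitabine-labelled and combination arrays. Its level was 11.52 in control and 10.90 in treated cells on the first of these, 11.39 and 11.12 on the carboplatin-labelled array, and 11.50 and 10.81 on the combination array. The groups of levels do not overlap, and the gap is smallest on the carboplatin-labelled array. On the log2 scale the changes were -0.62, -0.27 and -0.69, and the first lies within 1 SD of repeated spots of the 1.5-fold line.

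**Figure D2:**
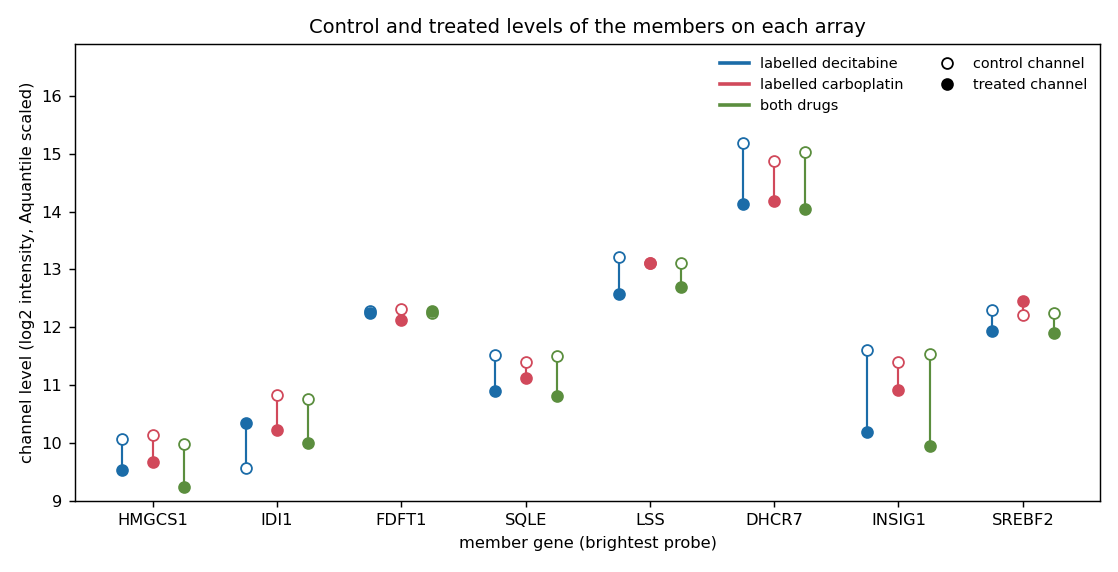
Channel level (y axis, log2 intensity scaled across arrays) of the brightest probe of each member (x axis), with open circles for control and filled circles for treated cells and a line joining the pair of each array. INSIG1, DHCR7, SQLE and HMGCS1 have every filled circle below every open one. The share of all genes with that pattern is not given, and a dye preference of a probe is kept in it. The pair of IDI1 on the decitabine-labelled array runs the other way, from 9.57 in control to 10.34 in treated cells.

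HMGCS1 condenses acetyl-CoA with acetoacetyl-CoA at an early step of the mevalonate pathway. Its level was 10.07 in control and 9.54 in treated cells on the decitabine-labelled array, 10.13 and 9.68 on the carboplatin-labelled array, and 9.98 and 9.24 on the combination array. The treated levels lie below the control levels on all 3 arrays without overlap. The log2 changes were -0.54, -0.46 and -0.74, past 1.5-fold on the combination array alone. A dimmer probe of the same transcript, A_23_P133263, with control signals of 279 to 357 against 1337 to 1709 for the brighter, gave -0.27, -0.18 and -0.17, so the call rests on the brighter probe.

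LSS, the synthase that closes oxidosqualene into lanosterol, fell on the decitabine-labelled array by its brightest probe. Levels were 13.22 in control and 12.57 in treated cells there, 13.12 in both channels of the carboplatin-labelled array, and 13.11 and 12.70 on the combination array. On the log2 scale the changes were -0.65, 0.00 and -0.41, the first again within 1 SD of repeated spots of the 1.5-fold line. That call is lost with the scanner's processed signals, which give -0.57. The second bright probe, A_24_P110799, gave -0.48, 0.15 and -0.20, the same order of arrays with each value higher. Probes A_23_P211252 and A_24_P162211, which overlap and stand for another transcript record, were dim, with control signals of 179 to 250. They gave -0.13 and 0.06 on the decitabine-labelled array, -0.13 and -0.08 on the carboplatin-labelled array, and 0.03 and 0.15 on the combination array, all within 1.5-fold.

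FDFT1 joins a pair of farnesyl diphosphates into squalene, and its values were the closest to 0 on the decitabine-labelled and combination arrays. Its levels ran from 12.25 to 12.31 in control cells and from 12.13 to 12.28 in treated cells, so the groups overlap. The log2 changes were -0.04, -0.18 and 0.03, of which the first and the last lie within the SD of repeated spots.

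**Figure D3:**
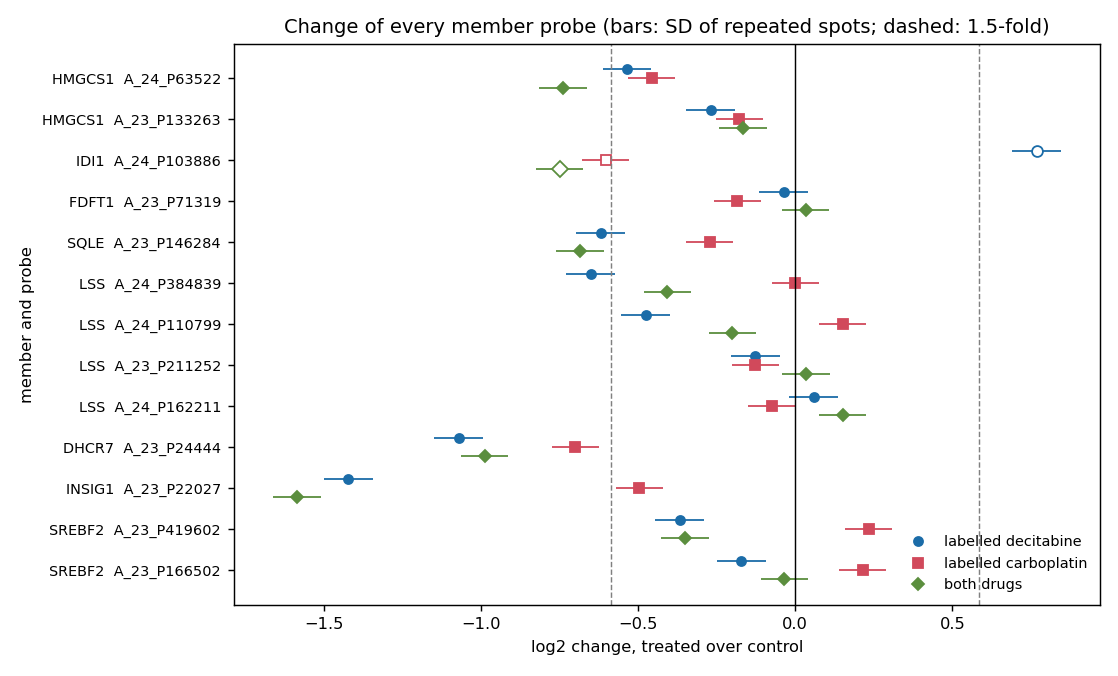
Log2 change, treated over control (x axis), of each of the 13 member probes (y axis) on the 3 arrays. Bars give the pooled SD of repeated spots of other probes, dashed lines mark 1.5-fold, and open symbols mark the IDI1 probe in columns 1 to 9. On the decitabine-labelled and combination arrays the probes of INSIG1 and DHCR7 lie left of the others, and on the carboplatin-labelled array that of DHCR7 does, at -0.70. On the decitabine-labelled and combination arrays the dim probes of HMGCS1 and LSS lie closer to 0 than the brightest ones.

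IDI1, the isomerase that turns isopentenyl diphosphate into dimethylallyl diphosphate, has a single probe, at column 4. It read 0.77 on the decitabine-labelled array, -0.60 on the carboplatin-labelled array and -0.75 on the combination array. Control signals were 1135, 2803 and 2333 on these arrays, and treated signals 889, 811 and 704. The control signal of the decitabine-labelled array is thus the one that stands apart, while its treated signal is the highest of the 3 by a small margin. The median change of all spots in column 4 was 0.82 on that array, -0.04 on the carboplatin-labelled array and 0.01 on the combination array. Less those medians the values of IDI1 are -0.05, -0.56 and -0.76, and against the control levels of the carboplatin-labelled and combination arrays the treated level of the decitabine-labelled array gives -0.45. Both of these settings were chosen after the data were seen. IDI1 is among the genes that the study lists as raised by carboplatin, a list chosen on these arrays and so no independent evidence of a direction.

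**Figure D4:**
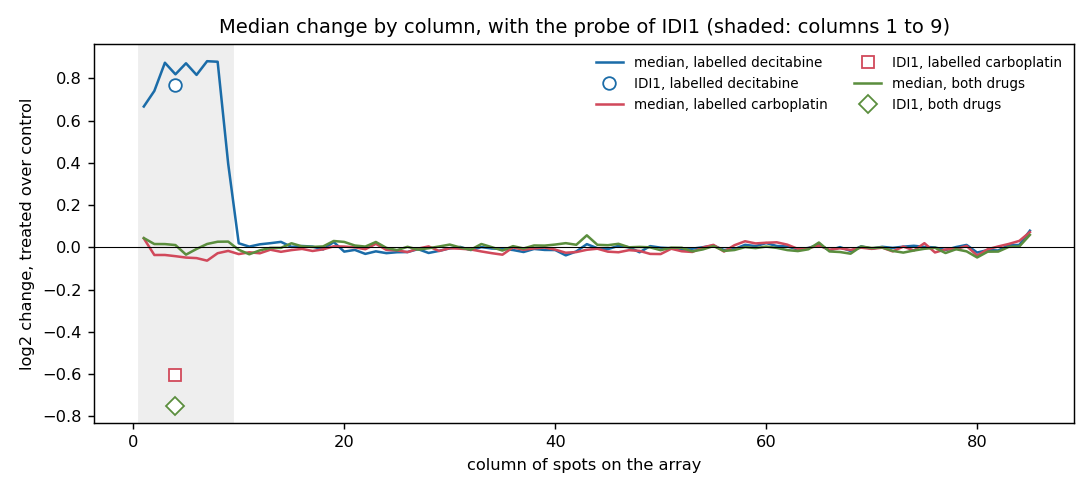
Median log2 change, treated over control (y axis), of the spots in each column of spots (x axis, 1 to 85) for the 3 arrays as lines, with the probe of IDI1 as open symbols and columns 1 to 9 shaded. The line of the decitabine-labelled array stands at 0.82 in column 4, near the value of 0.77 for IDI1, while the other lines stay near 0.

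Setting the arrays side by side, 6 of the 7 members were lower on the decitabine-labelled array than on the carboplatin-labelled array, FDFT1 being the exception at 0.15 higher. The share of all genes that were lower there is not given. More of all genes fell on the decitabine-labelled array, 6.46 % against 1.86 %, so the count is not particular to the members. INSIG1 differed by -0.93, LSS by -0.65 and SREBF2 by -0.60, each more than the SD of 0.11 that repeated spots give such a difference. The difference was -0.37 for DHCR7, -0.35 for SQLE and -0.08 for HMGCS1, the last within that SD. A dye preference of a probe that is the same on every array drops out of these differences, though not out of the changes themselves. For DHCR7 the control levels of the decitabine-labelled and carboplatin-labelled arrays, 15.20 and 14.88, differ more than the treated levels, 14.12 and 14.18. Its difference thus lies mostly between the control channels. Between the combination array and the decitabine-labelled array the members differed by -0.20 for HMGCS1 to 0.24 for LSS. The value with both drugs lay above the sum of the single-drug values in 6 members, by 0.78 for DHCR7 and by 0.21 to 0.33 for HMGCS1, SQLE, LSS, FDFT1 and INSIG1, with an SD of 0.13 from repeated spots. The sign held for these 6 in all 11 settings. Not all settings are independent, as the scanner's log ratio rests on the processed signals. For members with 1 probe, the settings that choose or average probes repeat the reported value. Unlike the differences between pairs of arrays, the comparison with the sum keeps a dye preference of a probe. The share of all genes above their own sum is not given here. For SREBF2 the value lay 0.22 below the sum, but 0.28 above it with median centring, and within the SD by its dimmer probe and in the authors' values. None of these differences has a replicate.

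Among 14 other synthesis enzymes, 1 fell on the decitabine-labelled array, none on the carboplatin-labelled array and 2 on the combination array, while 1 rose on each. Of all genes, 6.46 %, 1.86 % and 7.66 % fell, and 6.77 %, 3.59 % and 9.83 % rose. On the decitabine-labelled array 1 of 14 is near both shares. Their medians were -0.16, -0.03 and -0.24. EBP, the sterol isomerase, gave -0.63, 0.05 and -0.38. Its call lies within 1 SD of repeated spots of the 1.5-fold line, like that of SQLE on the decitabine-labelled array. FDPS, which makes farnesyl diphosphate, gave -0.44, -0.23 and -0.63, and CYP51A1, the lanosterol demethylase, gave -0.56, -0.56 and -0.66. On the combination array the FDPS value lies within 1 SD of repeated spots of the 1.5-fold line. There the other probe of CYP51A1 gave -0.42, short of the call. TM7SF2, a sterol C14 reductase, rose 2.02-fold and 2.30-fold on the decitabine-labelled and combination arrays. Its log2 change on the carboplatin-labelled array was 0.49 (-0.10 with median centring). Median centring loses its call on the decitabine-labelled array (0.45) and leaves 0.59 on the combination array, close to the 1.5-fold line. MVD, the mevalonate diphosphate decarboxylase, gave -0.10, 0.74 and -0.01 and so rose on the carboplatin-labelled array alone, a call that median centring loses (0.37). SC5D, the lathosterol oxidase, stayed within 1.5-fold by its brightest probe, while other probes of it reached -0.79 on the carboplatin-labelled and -0.60 on the combination array.

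**Figure D5:**
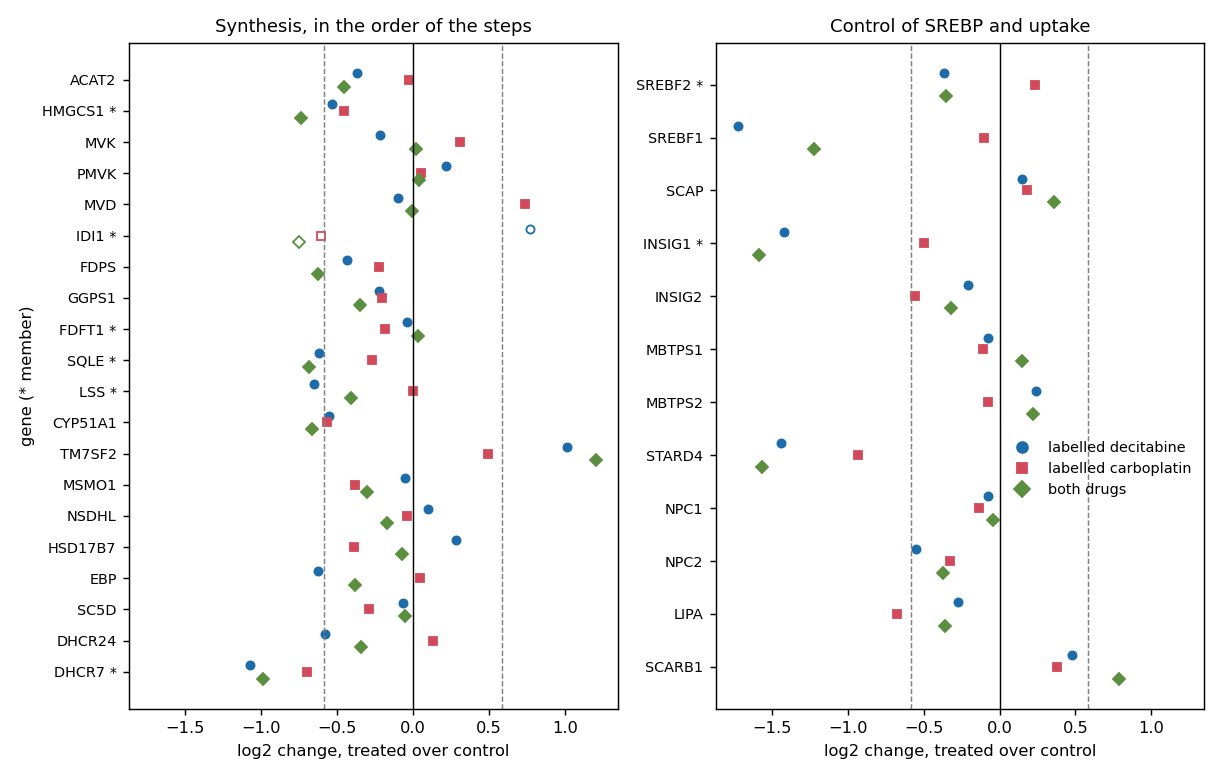
Log2 change, treated over control (x axis), of the synthesis enzymes in the order of the steps (left) and of genes of SREBP control and uptake (right), with members starred, dashed lines at 1.5-fold and open symbols for IDI1 in columns 1 to 9. HMGCS1, SQLE, CYP51A1, FDPS and DHCR7 are among the genes left of 0 on all 3 arrays. TM7SF2 lies right of 0 (left of it with median centring on the carboplatin-labelled array). On the decitabine-labelled and combination arrays STARD4, INSIG1 and SREBF1 hold the lowest values.

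Of 9 measured genes of cholesterol uptake and transport, 1 fell on the decitabine-labelled array, 2 on the carboplatin-labelled array and 1 on the combination array, where 1 rose. The shares of all genes were 6.46 %, 1.86 % and 7.66 % down, and 9.83 % up on the combination array. STARD4, which carries cholesterol between membranes, fell on all 3 arrays, by 2.72-fold, 1.91-fold and 2.96-fold, the same order of arrays as for INSIG1. LIPA, the lysosomal acid lipase, gave -0.27, -0.68 and -0.36 and fell on the carboplatin-labelled array alone. SCARB1, the HDL receptor, gave 0.48, 0.38 and 0.79 and rose on the combination array by its brightest probe. The call is lost with median centring, which gives -0.11, -0.26 and 0.12, and by its dimmest probe, at 0.40.

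Of 6 other genes that control SREBP, 1 fell on the decitabine-labelled and combination arrays, and none on the carboplatin-labelled array. It was SREBF1, at 15.59 in control and 13.86 in treated cells, 15.26 and 15.16, and 15.40 and 14.18 on the decitabine-labelled, carboplatin-labelled and combination arrays, which makes -1.72, -0.10 and -1.22. Its other probe gave -1.07, 0.38 and -0.64, the same order with smaller falls. INSIG2, the second INSIG, gave -0.21, -0.55 and -0.32, and SCAP gave 0.15, 0.18 and 0.36, all within 1.5-fold. Beside the count of these 6 genes, 6.46 %, 1.86 % and 7.66 % of all genes fell.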

How the data were processed

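RNA of treated and DMSO control YB5 cells was hybridised to 3 arrays on 1 slide. Spot intensity was deposited by the authors from Agilent Feature Extraction (9.5.3.1 per the file headers, 8.5.1.1 per the labels), with log10 ratios of its processed signals and spot flags. The processed values of the authors are loess normalised log2 ratios made with limma in R 3.0.2, rounded, with direction and background step unstated. They correlated at 0.87, 0.84 and 0.94 with the treated over control changes computed here from the scanner signals of the same arrays, and their column medians were -0.01, 0 and -0.01.

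Mean signals were corrected by normexp (offset 50) and normalised by loess within each array in R 4.3.3 with limma 3.58.1, with weight 0 for control spots, outlier flags and columns 1 to 9. Flagged spots were left out (276, 111 and 89), and spots of a probe were averaged. Control and treated channels were well above background for 65.8 to 70.3 % of spots. Channel levels came from Aquantile scaling. A RefSeq gene could be assigned to 28785 of 41000 probes. A gene took its brightest probe outside columns 1 to 9. Shares of genes past 1.5-fold count genes well above background in either channel (12834, 13048 and 12878). Reading used the packages jsonlite (2.0.0) and data.table (1.17.8). The code was tested on simulated data.

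Named genes are the members, the genes of 4 pathway lists past 1.5-fold on any array, and the 5 genes nearest to the members' median profile. INSIG2, SCAP, SC5D and CD68 were named after their values were seen. Some genes of these pathways are not reported here, and the counts leave them out. Members and lists were chosen with earlier results of these data known. Other background, normalisation, probe and fold settings were tried.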

Additional observations from a re-analysis of the deposited data

How the results depend on the processing

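In 10 alternative settings and the one reported, DHCR7 stayed past 1.5-fold down on all 3 arrays, and SQLE and INSIG1 on the decitabine-labelled and combination arrays. These genes have 1 probe each, so the dimmest probe and the mean of probes repeat the reported value. The scanner's log ratio repeats the processed signals. The members' median moved to -1.06, -0.74 and -1.09 with median centring on the decitabine-labelled, carboplatin-labelled and combination arrays, and to -0.27, -0.18 and -0.17 with the dimmest probe of each gene. The mean of probes gave -0.40 on the decitabine-labelled array and -0.45 on the combination array, the authors' table gave -0.72 and -0.40 on the decitabine-labelled and carboplatin-labelled arrays, and loess on all columns, which includes IDI1, gave -0.36 on the latter. At 2-fold, 2, 0 and 1 members fell. On the decitabine-labelled array these were INSIG1 and DHCR7, with 0.374 % and 1.18 % of all genes lower. On the combination array it was INSIG1, with 0.256 % lower. The share of all genes past 2-fold is not given here. On the carboplatin-labelled array 5 fell with median centring (24.1 % of all genes did), 2 with loess on all columns (1.49 %) and 2 in the authors' table (3.98 %). Of the 5 with median centring, 2 remain once the median of all genes is subtracted. That subtraction does not take off the whole shift of bright genes, and no share of all genes after it is given. On the decitabine-labelled array loess on all columns counts 1 member up, IDI1 (10.6 % of all genes). Called values that turned sign on that array were LSS at 0.058 and SOAT1 at 0.10 by their dimmest probes, and IDI1 at -0.48 with processed signals, -0.48 with the scanner's log ratio, -0.17 in the authors' table, -0.051 less its column's median and -0.45 against the other arrays' controls. Among uncalled values, SCARB1 turned to -0.11 there and to -0.26 on the carboplatin-labelled array with median centring. The cause was not tested beyond the column medians given for IDI1.

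Of all genes past 1.5-fold, 51.2 %, 65.9 % and 56.2 % were up, against 9.58 %, 8.02 % and 14.6 % with median centring, 40.7 %, 56.9 % and 52.9 % with processed signals, and 38.8 %, 46.1 % and 44.3 % in the authors' table. No paired analysis was possible because each treatment has 1 array, and leaving out a replicate could not be tried. Signal limits VLDLR, ABCA1, CH25H, CYP27A1 and CYP46A1, which were in neither channel well above background on at least 1 array.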

Other observations

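Genes of cholesterol efflux, storage and LXR signalling, the arm that acts when sterols are plentiful, were measured for 6, 6 and 7 genes on the decitabine-labelled, carboplatin-labelled and combination arrays. None rose on any array by its brightest probe, while 6.77 %, 3.59 % and 9.83 % of all genes did. A dimmer probe of ABCA1, the cholesterol exporter, reached 0.74 on the combination array against 0.13 for the brightest. SOAT1, which esterifies cholesterol for storage, fell on the decitabine-labelled array with -0.60, against 0.28 and -0.16 on the other arrays, while another of its probes gave 0.10 there. The medians of the group were 0.06, 0.17 and 0.13. NR1H3, which encodes LXR alpha, gave 0.46, 0.31 and 0.31, and MYLIP, a ubiquitin ligase, gave 0.02, 0.07 and 0.57, all short of 1.5-fold. NR1H3 and MYLIP were named after their values were seen. RNF139, a ligase of the sterol control machinery, has its only probe in columns 1 to 9 and read 1.19, -0.48 and -0.31, the same turn of sign as IDI1.

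The genes whose 3 changes lay closest to the members' median profile were TBCK, PLEKHG3, TRIM38, FNBP1 and KRT10. That profile is the same as the values of SQLE, the middle member on each array, so it rests on 1 probe. TBCK gave -0.60, -0.26 and -0.68, at a distance of 0.02, and the other 4 lay at 0.05 to 0.07. Of 11916 genes compared, 232 lay within 0.2, which were not sorted by function.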
